A study of Mus musculus with 48 samples.

Results

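The genes described here encode the mitochondrial solute carriers of family Slc25, measured in the liver of mice that lack the clock gene Bmal1 (symbol Arntl) in adipocytes. Members were the rows of the gene table whose symbol was Slc25a followed by a number, without Slc25a25, and with at least 10 counts in at least 3 libraries. Of 44 such rows, 4 had too few counts (Slc25a18, Slc25a31, Slc25a41 and Slc25a43, with 35, 22, 2 and 13 counts over all libraries) and 1 was Slc25a25, which left 39 members among 22354 genes. The rule uses symbols and a count minimum, and all 39 genes also passed the filter on low counts that left 13646 genes for testing.

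Liver RNA came from 48 female C57BL/6J mice, 25 labelled WT and 23 labelled KO, the KO being a deletion of Bmal1 restricted to fat cells. Livers were collected at 6 times that were 4 h apart, from ZT0 to ZT20 (ZT, zeitgeber time, hours on the former light schedule). Each group held 4 mice, except ZT16 with 5 WT and 3 KO mice. All mice, WT and KO alike, had spent 1 day in darkness and had gone without food for 24 h, so every level below is that of a fasted liver, and no fed liver was analysed here. Ages ran from 28.75 to 105 weeks. The labels name neither the driver of the deletion nor whether WT mice carried any of its alleles. Arntl itself ranged from 0.819 to 43.8 CPM (counts scaled by library size to a per-million basis) in WT livers and from 1.58 to 37 in KO livers, which does not check the labels, because liver is not the targeted tissue.

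SLC25 proteins are small carriers, most of them in the inner mitochondrial membrane, that exchange nucleotides, phosphate, carboxylates, amino acids and cofactors between the mitochondrial matrix and the cytosol. In liver they connect steps of a pathway that lie on either side of that membrane: the urea cycle, gluconeogenesis, fatty acid oxidation, citrate export for lipid synthesis and the transfer of reducing equivalents. Each carrier is encoded by its own nuclear gene, and close paralogs often carry the same solute in different tissues.

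With Alb set aside, counts per library ran from 12841969 to 13009797 (median 12929297). Livers from the same group had correlations of 0.906 to 0.986 over all genes tested (median 0.971, log2 CPM). Within groups, a single component held 36.4% of the variance of all genes, and its gene loadings correlated with the GC content of transcripts (r = 0.734 over 13300 genes, which are not independent). The mean score of this component was 7.75 ± 36.1 in WT and -8.42 ± 36.2 in KO mice (SD, n = 25 and 23), 18.5 ± 19.7 at ZT0 and -21.3 ± 20.5 at ZT8 (n = 8 each). KO mice weighed 24.2 ± 3.57 g and WT mice 21.8 ± 2 g. Mice of ZT20 were on average 42.1 weeks old, against 56.9 to 73.4 weeks in the other groups, so time and age are confounded in part. Hepatocyte markers summed to 20900 to 56900 CPM in every library. Of 8 adipocyte genes, Lep, Retn and Ucp1 had under 10 counts over all libraries. The 8 together were detected, at 9 to 43.6 CPM in WT (median 22.9) and 14.6 to 42.8 in KO (median 30.1). Of the 11 marker lists of liver and other cell types, 0 had a gene past the threshold between genotypes, against 1.4% of all genes. Some lists were hardly tested, with 2 adipocyte, 2 exocrine pancreas and 1 skeletal muscle gene. The median log2 difference, KO minus WT, was -2.05 for neutrophil and 0.873 for exocrine pancreas genes, against -0.168 to 0.316 for the other lists. Summed neutrophil markers reached 474 CPM in a WT liver and 591 in a KO liver, and summed exocrine pancreas markers reached 346 CPM in a KO liver. In bulk tissue, fewer cells of a type and less RNA per cell cannot be told apart.

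The family took up 0.309% to 0.650% of the counts of a library, 0.485% ± 0.0671 in WT and 0.450% ± 0.0867 in KO (SD, n = 25 and 23; a description, with no test). Its genes spanned a 1426-fold range of levels per kb of exon. Slc25a47, a carrier known for its restriction to liver (mm9 chr12:110089339-110095024), was highest at 362 CPM per kb. It ran from 571 to 1710 CPM over the mice (median 1034) and alone gave 23% of the family's CPM. Slc25a5, an ADP/ATP carrier that exports ATP (chrX:34335646-34338802), followed at 301 CPM per kb. The next were the glutathione carrier Slc25a39 at 124 (chr11:102264299-102269260), the ornithine carrier Slc25a15 at 80.0 (chr8:23486026-23509093) and the dicarboxylate carrier Slc25a10 at 70.9 (chr11:120353154-120360501). By CPM not divided by length, Slc25a3 also belonged to the upper ranks, and the highest 5 genes together gave 57.7% of the family's CPM. At the other end, Slc25a35 had 0.254 CPM per kb, the glutathione carrier Slc25a40 0.466 and the ornithine carrier Slc25a2 0.483. By mean CPM the lowest 3 were Slc25a2, Slc25a35 and the calcium-regulated ATP-Mg/phosphate carrier Slc25a24, at 0.661, 0.933 and 1.91. The counts behind Slc25a2 were 2 to 20 per library and those behind Slc25a35 3 to 27, so their values carry much counting error.

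Paralogs of the same solute were far apart in this liver. The ADP/ATP carrier Slc25a5 stood 107-fold above Slc25a4 per kb. Citrin (Slc25a13), an aspartate/glutamate carrier of liver, stood 31.7-fold above its paralog aralar (Slc25a12). The ornithine carrier Slc25a15 was 166-fold above Slc25a2, and the glutathione carrier Slc25a39 was 266-fold above Slc25a40. The mitochondrial iron importers Slc25a37 and Slc25a28 (mitoferrin 1 and 2) were close to each other, with a ratio of 1.70. In the table's mm9 coordinates Slc25a29 and Slc25a47 lie 15245 bases apart on chromosome 12, yet their levels per kb differed by 243-fold. Likewise Slc25a23 lies 2.06 kb from Slc25a41, which had 2 counts in all. Slc25a5 lies 18.4 kb from Slc25a43, which had 13. How reads that match several paralogs were counted is not stated.

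**Figure D1:**
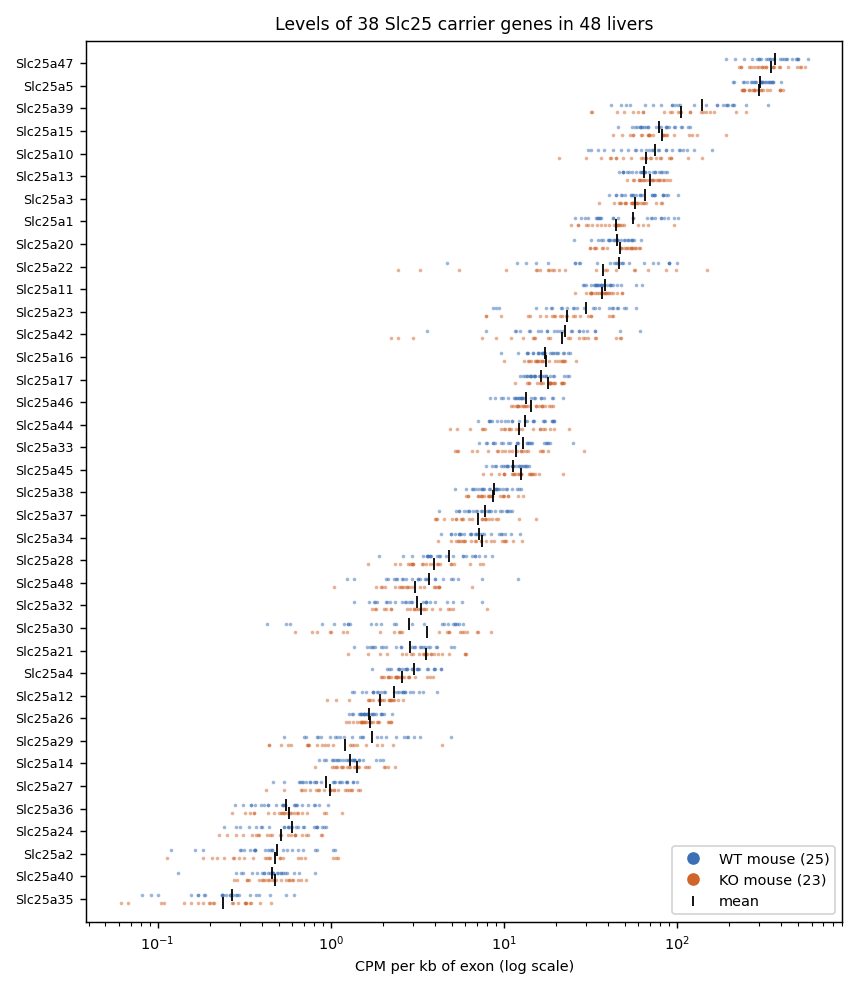
Level of 38 carrier genes in CPM per kb of exon (log scale), 1 point per mouse, WT in blue and KO in orange, with the mean of each genotype as a black tick. Slc25a47 and Slc25a5 lie highest, at 362 and 301 CPM per kb, Slc25a35 lies lowest at 0.254, and points of both genotypes overlap for every gene.

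The main comparison asked whether loss of Bmal1 in adipocytes went with other carrier levels in the liver, averaged over the 6 times. None of the 39 genes passed the threshold (adjusted p under 0.05, edgeR's quasi-likelihood test with Benjamini-Hochberg adjustment over all genes tested), where 1.4% of all genes did. At an unadjusted p under 0.05 there were 5 carrier genes (12.8%), against 17.1% of all genes. Of these 2 were higher in KO, as were 8.26% of all genes, and 3 lower, as were 8.86%. DESeq2 called 0 as well. With the within-group component as a covariate, 10 carrier genes passed (21.1% of all genes did). This covariate has a mean of 0 in every group, so it narrows the spread and cannot take up differences between groups. It was computed from deviations of the same counts, so p-values with it can be too small. The median log2 difference of the family, KO minus WT, was -0.05 against -0.0047 for all genes tested, with 15 members above 0 and 24 below, where 48.9% of all genes were above 0.

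Slc25a21, which carries 2-oxoadipate and 2-oxoglutarate in lysine and tryptophan breakdown (chr12:57813621-58298459), had the smallest p. It ranged from 6.62 to 25.1 CPM in WT mice (median 14.4) and from 6.10 to 29.6 in KO mice (median 17.1). The log2 difference was 0.30 (SE 0.10, adjusted p = 0.0984). At ZT0 the 4 KO livers had 14.65, 12.63, 16.72 and 14.12 CPM and the 4 WT livers 8.507, 12.45, 7.874 and 10.19, so the groups did not overlap. No carrier gene passed at ZT0 (smallest adjusted p = 0.686, edgeR). The share of all genes without overlap at that time was not computed, so the separation is a description. At ZT4 the KO livers had 16.84, 29.01, 29.61 and 21.41 CPM and the WT livers 16.15, 17.81, 14.88 and 16.6, which overlapped. From ZT8 on the groups overlapped at each time. Without any 1 of 3 libraries (KO ZT4 replicate 1, KO ZT16 replicate 1 or WT ZT16 replicate 2) the gene passed, with adjusted p of 0.0446, 0.0438 and 0.0415.

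The other genes with an unadjusted p under 0.05 did not pass after adjustment. Aralar (Slc25a12) had a median of 17.1 CPM in WT and 14.2 in KO, a log2 difference of -0.27 (SE 0.10, adjusted p = 0.173). The ADP/ATP carrier Slc25a4, the main form of muscle and heart, had medians of 6.96 and 5.72 CPM, a difference of -0.20 (SE 0.09, adjusted p = 0.264). Slc25a29, a carrier of basic amino acids, had medians of 3.87 and 2.402 CPM, a difference of -0.47 (SE 0.23, adjusted p = 0.289). Slc25a45, whose substrate is less well described, had medians of 31.2 and 33.8 CPM, a difference of 0.16 (SE 0.08, adjusted p = 0.289). For all 4 the ranges of the genotypes overlapped.

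By role, 7 of 8 carriers of adenine nucleotides, phosphate and coenzyme A were below 0 in KO (median -0.13), and 7 of 10 amino acid and glutathione carriers (median -0.08). Of all genes, 48.9% were above 0. Members share the same libraries, so these counts are descriptions. Correlations of their deviations from group means with the within-group component ran from -0.752 (Slc25a17) to 0.974 (Slc25a39) in these 2 roles. The mean score of that component was 7.75 in WT and -8.42 in KO mice, and whether it bears on these counts was not tested. The 7 of the first group include values close to 0, such as -0.0013 (SE 0.072) for Slc25a16 and -0.04 (SE 0.062) for Slc25a5. The 3 uncoupling protein relatives were above 0 (median 0.15) and the 2 mitoferrins below (median -0.22). None of these members passed. The smallest p of the last 2 groups belonged to Slc25a14 (0.15, SE 0.11, adjusted p = 0.486) and Slc25a28 (-0.27, SE 0.15, adjusted p = 0.358). Slc25a20, the carnitine-acylcarnitine carrier through which fatty acids enter the matrix (chr9:108564429-108586972), had 219 ± 41.1 CPM in WT and 228 ± 48.7 in KO. Its log2 difference was 0.04, and the interval of 2 SE ran from -0.13 to 0.21. For Slc25a47 that interval ran from -0.29 to 0.14, for Slc25a5 from -0.16 to 0.09, for Slc25a15 from -0.16 to 0.27 and for the mitoferrin Slc25a37 from -0.36 to 0.02. The glutamate carrier Slc25a22 was far less well bounded, from -0.99 to 0.22. The citrate carrier Slc25a1 had the smallest p of the carboxylate carriers after Slc25a21, with a difference of -0.28 (SE 0.16, adjusted p = 0.366). Among cofactor carriers, the folate carrier Slc25a32 had 0.11 (SE 0.14, adjusted p = 0.667).

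**Figure D2:**
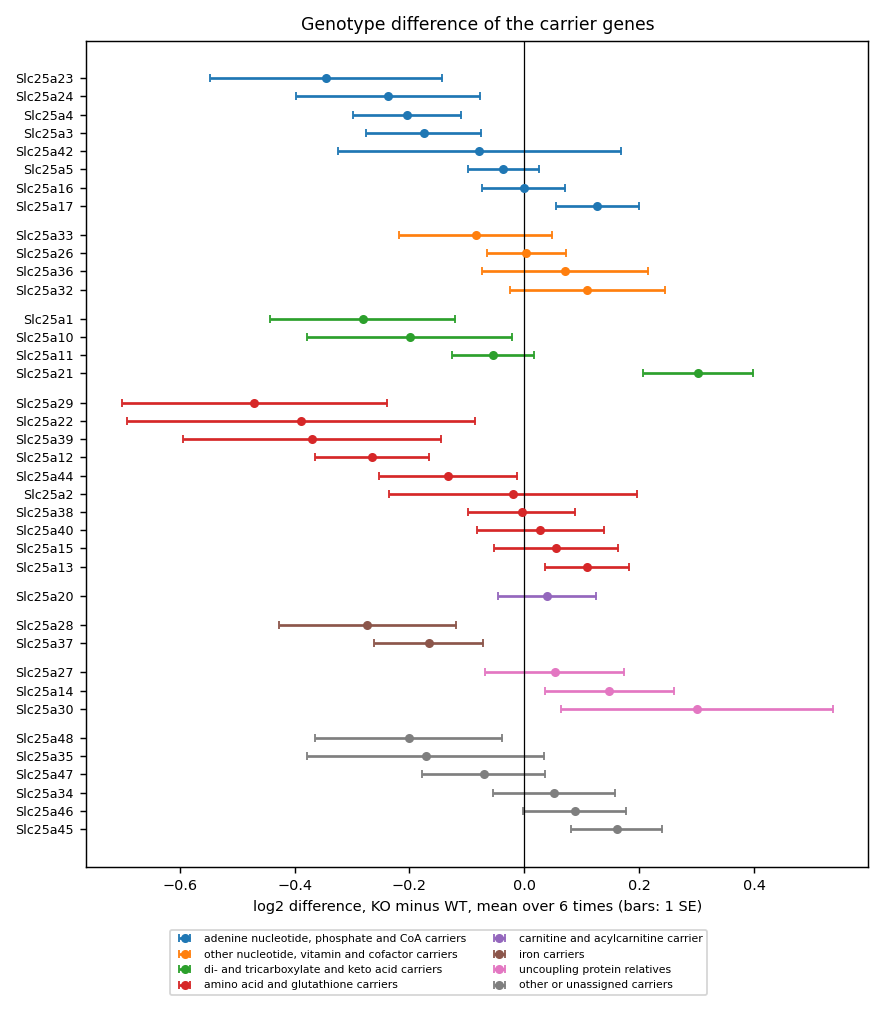
Log2 difference between KO and WT of 38 carrier genes, averaged over 6 times, with bars of 1 SE, grouped by role (colour). Values run from -0.47 (Slc25a29) to 0.30 (Slc25a21), and none passed the threshold after adjustment over all genes.

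At single times 0 of the 39 genes passed, and DESeq2 called 0 at each of them too. Of all genes, 0.0147% passed at ZT0, 0.0366% at ZT4, 0.022% at ZT16 and 0% at the other 3 times. At an unadjusted p under 0.05 there was 1 carrier gene at ZT0 (against 5.53% of all genes), 5 at ZT4 (against 23.3%), 1 at ZT8 (against 1.82%), 1 at ZT12 (against 4.4%), 1 at ZT16 (against 6.65%) and 0 at ZT20 (against 1.84%). The 5 of ZT4 were Slc25a21 and Slc25a45, above 0 in KO, and Slc25a12, the iron carrier Slc25a37 and the branched-chain amino acid carrier Slc25a44, below 0. For Slc25a44 the 4 KO livers of ZT4 had 38.44, 26.72, 17.59 and 19.25 CPM and the 4 WT livers 44.03, 47.69, 34.33 and 39.68. KO replicate 1 lay among the WT livers and the other 3 below all of them, a log2 difference of -0.70 (SE 0.30, adjusted p = 0.167). At ZT12 the smallest p was that of Slc25a48 (-0.97, adjusted p = 0.908), and at ZT16 that of the citrate carrier Slc25a1 (-0.90, adjusted p = 0.731). These ZT4 counts turn on KO ZT4 replicate 1: without it 10 carrier genes passed, as did 24.6% of all genes. At ZT4 the component score was 20.5 ± 24.5 in WT and -32.0 ± 53.1 in KO mice. With that score as a covariate, an alternative chosen after seeing the data, 0 carrier genes passed at ZT4, as in the main fit. The score was not used in the fit without KO ZT4 replicate 1, so whether it bears on those 10 genes was not tested. At ZT8 the log2 difference of Slc25a30, an uncoupling protein relative, was 1.43 (SE 0.59, adjusted p = 1). Its 4 KO livers had 8.776, 10.59, 5.422 and 32.57 CPM and its 4 WT livers 5.733, 5.922, 5.494 and 4.077, so a single KO liver stood far above the rest. The interaction of genotype with time gave 0 carrier genes (smallest adjusted p = 0.953), against 0.00733% of all genes, and 0 at an unadjusted p under 0.05, against 3.28%. DESeq2 gave 0 as well.

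Collection over a day also allowed a test for a 24 h rhythm, fitted as a cosine shared by both genotypes. Of the 39 carrier genes 18 passed (46.2%), against 43.7% of all genes, a share near that of the liver transcriptome at large. At an unadjusted p under 0.05 there were 23 (59%), against 53%. The median amplitude of these 18, the distance from mean to peak on log2 CPM, was 0.33, and that of all genes past the threshold was 0.32. Fitted peaks of 8 fell between ZT18 and ZT24 (44.4%, against 35% of all rhythmic genes), 6 between ZT6 and ZT12 (33.3% against 29.8%), 4 between ZT12 and ZT18 (22.2% against 17.8%) and 0 between ZT0 and ZT6 (against 17.4%). The highest and lowest times named below were read from the same values, so ratios between them and ranges without overlap are descriptions. The share of all genes whose ranges separate in this way was not computed.

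The strongest rhythm was that of the oxoadipate carrier Slc25a21. At ZT8 its 8 livers ranged from 18.4 to 29.01 CPM (median 21.8), and at ZT20 from 6.10 to 15.8 (median 9.16). All livers of ZT8 were above all of ZT20, a ratio of means of 2.34. The amplitude was 0.62 (SE 0.066) with a peak at ZT7.63 (adjusted p = 4.01e-09). It passed within WT (peak ZT8.17) and within KO (peak ZT7) alike.

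Of the carriers of other nucleotides, vitamins and cofactors 3 of 5 were rhythmic. Slc25a32, which carries folate and is also linked to FAD (chr15:38925737-38944262), ranged from 12.8 to 34.7 CPM at ZT12 (median 27.4) and from 10.5 to 16.9 at ZT0 (median 12.3). These ranges overlapped at their edges. Its amplitude was 0.52 (SE 0.09) with a peak at ZT13.2 (adjusted p = 1.69e-05). Slc25a33, a pyrimidine nucleotide carrier (chr4:149118145-149148386), ranged from 13.2 to 54.96 CPM at ZT16 (median 32.5) and from 9.89 to 30.5 at ZT8 (median 16.6). It peaked at ZT18.9 (amplitude 0.43, SE 0.093, adjusted p = 0.00102), and its levels overlapped between these times.

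Of the adenine nucleotide and coenzyme A carriers 5 of 8 were rhythmic. Slc25a16, linked to coenzyme A transport (chr10:62383381-62409246), ranged from 94.3 to 116 CPM at ZT8 (median 106.7) and from 46.2 to 80.8 at ZT16 (median 71.9), with no overlap. Its peak was at ZT7.23 (amplitude 0.29, SE 0.049, adjusted p = 5.32e-05). Slc25a5 ranged from 447 to 659 CPM at ZT12 (median 608) and from 351 to 574 at ZT4 (median 417). It peaked at ZT11.8 with a small amplitude of 0.21 (SE 0.041, adjusted p = 0.000654). The peroxisomal carrier Slc25a17 peaked at ZT9.83 (adjusted p = 0.00793), the coenzyme A carrier Slc25a42 at ZT19.9 (adjusted p = 0.0147) and Slc25a4 at ZT14.8 (adjusted p = 0.0265). The phosphate carrier Slc25a3, which feeds ATP synthesis, did not pass (adjusted p = 0.72).

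Among amino acid and glutathione carriers 4 of 10 were rhythmic, and 3 of these peaked between ZT18 and ZT24. Slc25a44 ranged from 40.1 to 69.6 CPM at ZT0 (median 55.6), from 22.9 to 84.96 at ZT16 (median 64.7) and from 27.04 to 39.4 at ZT8 (median 33.8), where every liver was below all those of ZT0. It peaked at ZT19.4 (amplitude 0.43, SE 0.092, adjusted p = 0.000203). Slc25a15, which imports ornithine for the urea cycle, ranged from 390 to 732 CPM at ZT20 (median 507) and from 241 to 388 at ZT8 (median 349). Livers of ZT20 lay above those of ZT8, by a narrow gap (389.6 against 387.5 CPM). At ZT16, the time of its highest mean (519 CPM), livers ran from 257 to 1082 CPM (median 469) and overlapped those of ZT8. The fitted peak of Slc25a15 was at ZT21.7 (amplitude 0.34, SE 0.076, adjusted p = 0.00207). Slc25a22, a glutamate carrier (chr7:148615638-148623791), ranged from 237 to 543 CPM at ZT0 (median 312) and from 28.3 to 163 at ZT8 (median 127), with no overlap and a peak at ZT22.1 (amplitude 0.81, SE 0.24, adjusted p = 0.00601). Its deviations from the group means, and those of Slc25a42, followed the within-group component (r = 0.918 and 0.868 over the 48 livers). The score of that component also differed between ZT0 and ZT8. With the score as a covariate, an alternative chosen after seeing the data, their adjusted p were 0.0113 and 0.0386 (edgeR). The score was computed from the same counts, and 28 carrier genes passed with it (against 47.3% of all genes). Whether the component bears on these rhythms was not tested. The glutathione carrier Slc25a40 was rhythmic at its low level, with a peak at ZT7.18 (adjusted p = 0.00228), and its abundant paralog Slc25a39 did not pass (adjusted p = 0.258).

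Iron, uncoupling-type and unassigned carriers gave further rhythms. The iron importer Slc25a37 (chr14:69859908-69903160) ranged from 41.5 to 92.8 CPM at ZT12 (median 56.6) and from 24.2 to 38.1 at ZT0 (median 33.3), without overlap. It peaked at ZT11.8 (amplitude 0.39, SE 0.071, adjusted p = 4.39e-05). Slc25a30, a relative of the uncoupling proteins (chr14:76161806-76186844), had the largest amplitude of the family, 0.83 (SE 0.21). It ranged from 20.0 to 38.8 CPM at ZT0 (median 23.6) and from 2.53 to 13.56 at ZT4 (median 4.55), a ratio of means of 4.03 across a single step of 4 h, with no overlap. Its fitted peak was at ZT20.7 (adjusted p = 0.0021). Slc25a34, a carrier of less well described substrate, ranged from 14.7 to 30.2 CPM at ZT20 (median 25.9) and from 11.1 to 19.9 at ZT4 (median 15.6), with overlap and a peak at ZT19.2 (amplitude 0.30, SE 0.072, adjusted p = 0.00187). Slc25a27 peaked at ZT13.1 (adjusted p = 0.0282). Slc25a47 ranged from 783 to 1710 CPM at ZT0 and from 649 to 1173 at ZT4, and passed only narrowly (peak ZT19.9, amplitude 0.21, adjusted p = 0.0383), a call lost with age as a covariate (adjusted p = 0.0625). In the main fit the carboxylate carriers Slc25a1, Slc25a10 and Slc25a11 and the carnitine carrier Slc25a20 did not pass (adjusted p = 0.833, 0.716, 0.0616 and 0.69). Slc25a11 passed with DESeq2 (adjusted p = 0.0354) and in edgeR with DESeq2 size factors (0.0454). With the component score, chosen after seeing the data, Slc25a1, Slc25a10 and Slc25a11 passed (adjusted p = 0.0129, 0.000177 and 0.000168, edgeR). The genes nearest the threshold were Slc25a47 inside it and Slc25a29 outside (adjusted p = 0.0514).

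**Figure D3:**
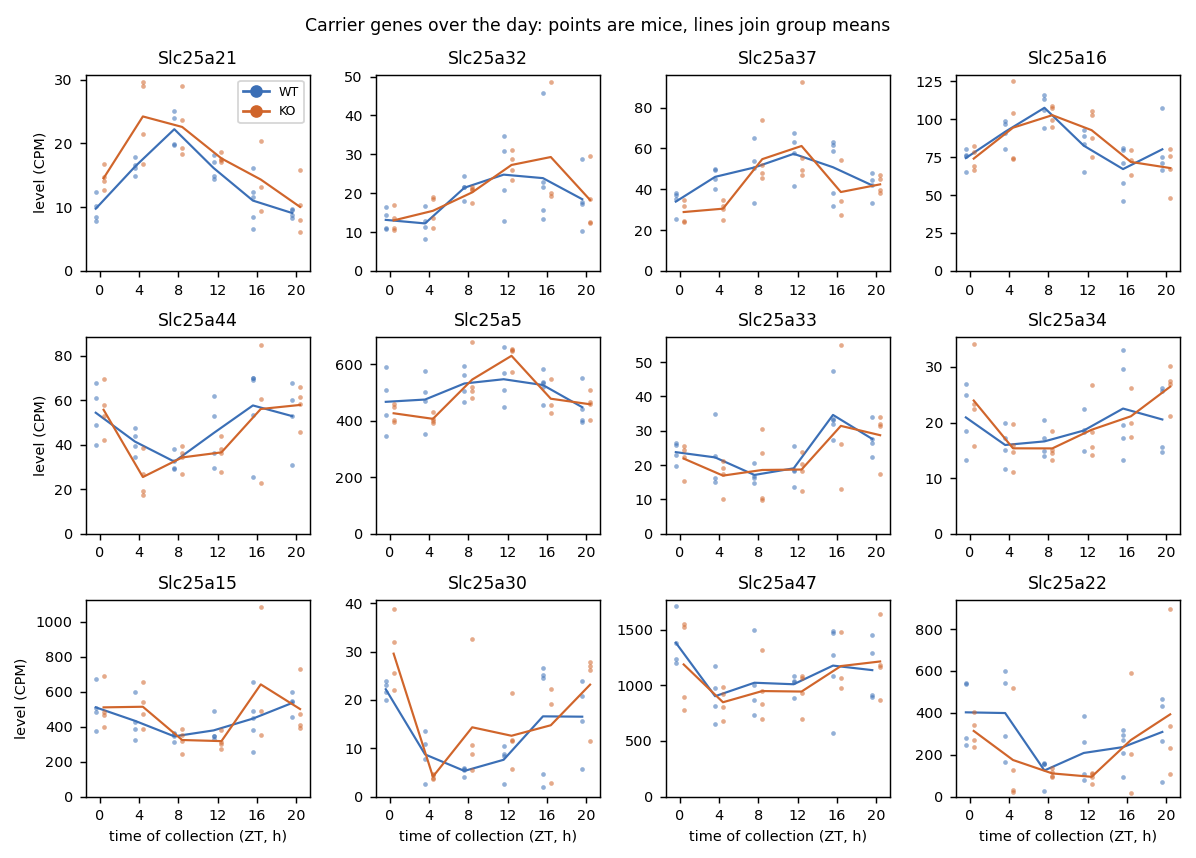
Level (CPM) against time of collection for 12 carrier genes, 1 point per mouse and lines through the group means, WT in blue and KO in orange. The first 10 panels show rhythmic genes in order of p, and the last 2 show Slc25a47 and Slc25a22; Slc25a21 is high at ZT4 to ZT8 and low at ZT20 in both genotypes.

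**Figure D4:**
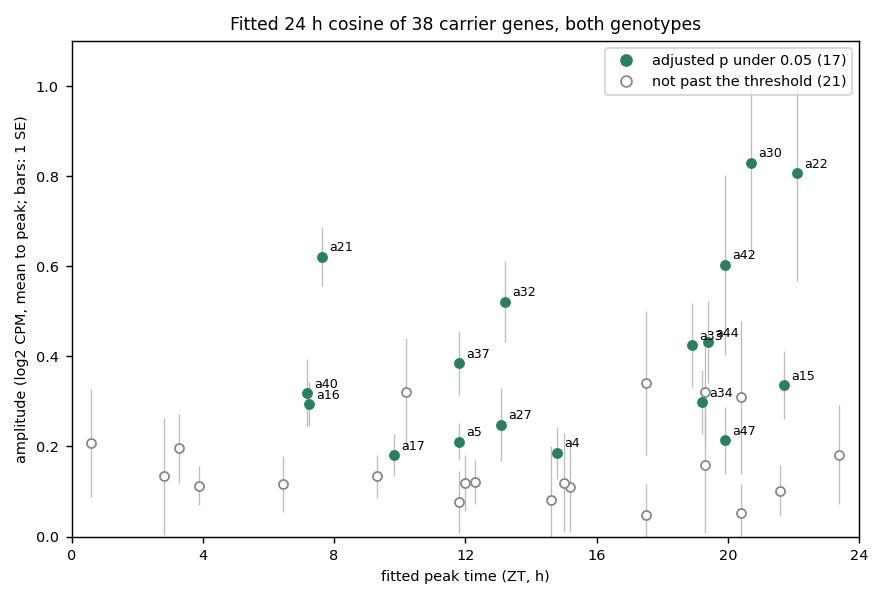
Amplitude of the fitted 24 h cosine (log2 CPM, bars of 1 SE) against its peak time for 38 carrier genes, filled where the adjusted p was under 0.05. Filled points lie after ZT6 only, and Slc25a30 and Slc25a22 lie highest at 0.83 and 0.81.

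Within WT alone 5 carrier genes were rhythmic (12.8%, against 16.3% of all genes), among them Slc25a16, Slc25a21, Slc25a30 and Slc25a32. Within KO alone there were 9 (23.1%, against 17% of all genes): Slc25a5, Slc25a15, Slc25a16, Slc25a21, Slc25a22, Slc25a32, Slc25a34, Slc25a37 and Slc25a44. The 3 genes in both lists made up 60% of the WT list and 33.3% of the KO list. The counts moved with the settings. DESeq2 gave 8 in WT (against 19.8% of all genes) and 11 in KO (against 21.1%). Without KO ZT16 replicate 3 there were 9 in WT (against 19.5%) and 14 in KO, and without KO ZT16 replicate 2 or WT ZT16 replicate 2 there were 8 in WT. These lists do not show a difference between genotypes, because the test of the difference in rhythm itself gave 0 carrier genes (smallest adjusted p = 1), against 0.00733% of all genes, and 0 at an unadjusted p under 0.05, against 2.66%. DESeq2 gave 0 for that test as well. Fitted peaks in WT and KO were ZT8.17 and ZT7 for Slc25a21, ZT13.3 and ZT13.1 for Slc25a32, ZT11.4 and ZT12.1 for Slc25a37 and ZT6.53 and ZT7.87 for Slc25a16, the 4 genes with the smallest rhythm p. No error of a peak time was computed.

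Promoter windows of RefSeq (GRCm38.p6, from 250 bases before to 50 after a transcription start) were found for 30 of the 39 genes, 37 windows in all. They were searched on both strands for motifs of clock factors. The E-box CACGTG, bound by the CLOCK and BMAL1 pair, was in 7 windows (18.9%, against 7.15% of 32851 windows of all genes), those of Slc25a1, Slc25a13, Slc25a14, Slc25a15, Slc25a33 and Slc25a36. Both windows of Slc25a14 held the same site. Of these genes 2 were rhythmic, Slc25a15 and Slc25a33. For the D-box of PAR bZIP factors the pattern TTATGNAA was searched, with any base at N. It was in 1 window (2.7% against 3.38%), that of the downstream of 2 starts listed for Slc25a21, where it reads TTATGAAA. The core AGGTCA, bound by ROR and REV-ERB receptors and by other nuclear receptors, was in 4 (10.8% against 16.3%), those of Slc25a34, Slc25a39, Slc25a45 and Slc25a47. The sequences around the matches in the 5 rhythmic genes are shown on the strand of the gene, 5′ to 3′, with the match in capitals. Peaks of these genes fell at different times: ZT7.63 for the TTATGNAA gene, ZT21.7 and ZT18.9 for the E-box genes and ZT19.2 and ZT19.9 for the AGGTCA genes. The sequences lie at chr12:57160756-57160813, chr8:22398324-22398379, chr4:149774268-149774300, chr4:141623923-141623978 and chr12:108850951-108851006, all before the start, and an AGGTCA match on the other strand reads TGACCT.
Slc25a21: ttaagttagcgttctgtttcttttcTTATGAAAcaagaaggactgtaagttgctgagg
Slc25a15: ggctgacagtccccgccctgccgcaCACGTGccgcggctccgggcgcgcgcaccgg
Slc25a33: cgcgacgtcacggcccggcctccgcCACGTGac
Slc25a34: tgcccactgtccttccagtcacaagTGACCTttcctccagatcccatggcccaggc
Slc25a47: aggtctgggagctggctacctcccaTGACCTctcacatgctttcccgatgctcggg
A match of letters is a description of the window, and binding was not measured here. Of the 13 rhythmic genes with a window, 8 had none of these 3 motifs in it (Slc25a4, Slc25a5, Slc25a16, Slc25a17, Slc25a22, Slc25a30, Slc25a40 and Slc25a42). Another 5 rhythmic genes (among them Slc25a27, Slc25a32, Slc25a37 and Slc25a44) had no window in the table. Of general promoter motifs, CCAAT was in 18 windows (48.6% against 37.4%), the CRE TGACGTCA in 1 (2.7% against 1.79%), the ETS motif CCGGAAGT in 1 (2.7% against 3.89%) and the palindromic NRF1 motif in 0 (against 0.971%).

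Mice of the same group differed widely in some carriers. The median SD within groups was 0.38 on log2 CPM for the family and 0.41 for all genes tested. The glutamate carrier Slc25a22 ran from 14.7 to 895 CPM over all mice, a 60.9-fold range, the coenzyme A carrier Slc25a42 over a 27.1-fold range and Slc25a39 over a 10.5-fold range. In contrast Slc25a26, which carries S-adenosylmethionine, stayed within 1.86-fold, Slc25a5 within 1.95-fold and citrin within 1.97-fold. Over the 48 livers, deviations from the group means of 15 of 39 carrier genes had an absolute correlation above 0.7 with the within-group component (38.5%, against 33.9% of all genes). The highest were Slc25a39 (r = 0.974), the ATP-Mg/phosphate carrier Slc25a23 (0.930), Slc25a22 (0.918), Slc25a10 (0.907) and the mitoferrin Slc25a28 (0.903). Slc25a46 (-0.866), Slc25a36 (-0.805) and Slc25a17 (-0.752) went the other way. These correlations followed the GC content of the carrier transcripts (r = 0.707 over 39 genes, which share the same libraries). Slc25a30 was as variable (19.9-fold) with r of only -0.09. Whether this component reflects the livers or the handling of the libraries was not tested.

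**Figure D5:**
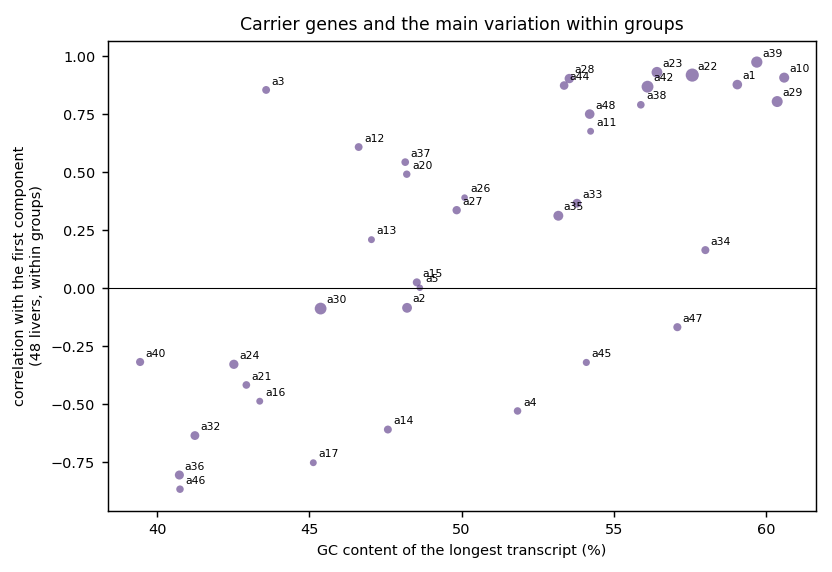
Correlation of 38 carrier genes (deviations from group means) with the main within-group component over 48 livers, against the GC content of their longest transcripts, with point area growing with the SD within groups. GC-rich carriers such as Slc25a39, Slc25a10 and Slc25a22 lie near the top and GC-poor ones such as Slc25a46 and Slc25a36 near the bottom, with Slc25a3 and Slc25a47 away from this trend.

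Body weight and age varied within groups and were tested as slopes beside the 12 group means. Neither gave a carrier gene past the threshold, against 0% of all genes for weight and 0.0366% for age, and DESeq2 gave 0 for both. At an unadjusted p under 0.05 there were 3 carrier genes for weight (7.69%, against 6.57% of all genes) and 2 for age (against 6.05%). Slc25a30 had the smallest p for weight, 0.17 log2 units per g (SE 0.058, adjusted p = 0.535), and Slc25a32 for age, -0.012 per week (SE 0.0041, adjusted p = 0.604).

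Genes that work beside the carriers were tested in the same fit. In 10 lists with 68 tested genes, 0 passed between KO and WT, against 1.4% of all genes. At an unadjusted p under 0.05, 4 were higher in KO (5.88%, against 8.26% of all genes) and 5 lower (7.35%, against 8.86%). For 33 of the 68 (48.5%) the rhythm passed, against the 43.7% of all genes above. Among urea cycle and glutamate enzymes (8 tested, 3 rhythmic), the liver glutaminase Gls2, which releases ammonia from glutamine, had the smallest genotype p (-0.31, SE 0.11, adjusted p = 0.135), and rhythms passed for the argininosuccinate lyase Asl (peak ZT18.9, adjusted p = 0.0165), Otc (ZT8.97, 0.0267) and Nags (ZT21.4, 0.0395). The ornithine carrier Slc25a15, which serves the same cycle, peaked at ZT21.7. Among malate-aspartate and glycerol phosphate shuttle enzymes (6 tested, 3 rhythmic), Gpd1 had -0.27 (SE 0.12, adjusted p = 0.249) and a rhythm with a peak at ZT2.65 (adjusted p = 7.98e-05). Got1 (0.0234) and Mdh1 (0.0316) followed. Of the carnitine shuttle enzymes 5 of 6 were rhythmic, led by Crat (peak ZT21.4, adjusted p = 2.69e-05), Cpt2 (ZT22.2, 4.98e-05) and Slc22a5 (ZT19.7, 0.00024), while their carrier Slc25a20 was not called. Crot had the smallest genotype p there (0.36, SE 0.14, adjusted p = 0.178).

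All 3 outer membrane channel genes were rhythmic, Vdac1 with a peak at ZT11.8 (adjusted p = 5.5e-06), Vdac3 (0.00442) and Vdac2 (0.00891). Vdac1 had the smallest genotype p of the channels (0.10, SE 0.047, adjusted p = 0.29). The calcium uniporter genes (4 tested, 3 rhythmic) were led by Ccdc109a, the pore gene also called Mcu, with a peak at ZT0.343 (adjusted p = 2.85e-10), Cbara1 (6.13e-08) and Efha1 (3.83e-05), and Efha1 had the smallest genotype p (0.17, adjusted p = 0.361). Of citrate export and pyruvate entry genes 4 of 7 were rhythmic, first Cs, citrate synthase (peak ZT23.9, adjusted p = 0.000103), then Brp44l (0.0111) and Brp44 (0.0294), and the pyruvate carrier gene Brp44l (Mpc1) had a genotype difference of 0.25 (SE 0.12, adjusted p = 0.274). Among carrier genes of the family under older symbols (6 tested, 2 rhythmic), the abundant one of 2 rows named Mcart1 peaked at ZT17.1 (adjusted p = 1.62e-06) with a genotype difference of -0.19 (SE 0.11, adjusted p = 0.37), and Mcart6 was rhythmic too (adjusted p = 0.0106). Of the import machinery 2 of 9 were rhythmic, Tomm22 (adjusted p = 0.000297) and Timm8a1 (0.0149), and Timm8a1 had the smallest genotype p (0.20, adjusted p = 0.4). Of sideroflexins and ABC transporters 4 of 9 were rhythmic, and the serine carrier Sfxn1 led both tests (peak ZT15.1, adjusted p = 5.27e-05; genotype -0.17, adjusted p = 0.194), with Sfxn2 also rhythmic (0.0182). Of the biogenesis regulators 4 of 10 were rhythmic, Nrf1 (adjusted p = 0.00356), Tfb1m (0.00856) and Ppargc1a (0.017) first, and the nuclear receptor Esrra had a genotype difference of -0.24 (adjusted p = 0.194).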

How the data were processed

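Liver polyA RNA of 48 mice was made into libraries with a TruSeq stranded kit and 13 PCR cycles over 3 days, per the labels' protocols, which do not tie libraries to days. CASAVA and STAR 2.4.1d on mm9 are named in the submitters' processing notes. The authors deposited whole-number read counts per gene with mm9 coordinates. The counting program, its annotation and whether depth was made equal are not given in the sources used here. Alb, whose values were spaced by rounded multiples of a fixed step (5.66% to 14.6% of counts), was left out of library sizes and tests.

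Counts were tested in R 4.3.3 with edgeR 4.0.16 (filterByExpr, TMM factors 0.892 to 1.11, quasi-likelihood test, Benjamini-Hochberg adjustment over 13646 genes, threshold 0.05). A model of 12 group means gave the genotype differences, their interaction with time (5 degrees of freedom) and slopes of weight and age. A cosine and sine of 24 h (2 degrees of freedom) gave rhythms. Amplitudes came from log2 CPM (prior count 2). Levels per kb used GENCODE M21 exon lengths on GRCm38, matched for 39 of 39 genes by identifier. Alternatives were DESeq2 1.42.0, other size factors, no filter, covariates, a replicate block and leaving out each library. On simulated counts the genotype test recovered 96% of 100 genes changed by 1 log2 unit and 54% of 100 changed by 0.5, and the rhythm test 74% at an amplitude of 0.5 and 7% at 0.25. The simulation drew genes independently, without the within-group component, and changed few of 13646 genes. In the data 43.7% of all genes passed the rhythm test, and carrier genes passed at amplitudes down to 0.181. The simulated shares are therefore not the recovery in these livers.

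Genes to name were, within each comparison, those past the threshold, the 10 smallest rhythm p, the highest and the smallest genotype p of each role list, the highest 5 and lowest 3 by mean CPM, and per pathway list the smallest genotype p and up to 3 genes with the smallest rhythm p. Others are named to account for members; results of some genes that this rule names are not reported here. The members and lists were chosen with earlier results of these data known. Labels tell mice apart but name no litters, so p-values measure the spread between these mice.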

Additional observations from a re-analysis of the deposited data

Results flagged for a closer look

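Of 99 groups (9 rhythmic carrier genes in 11 groups of 4 or 5 mice), 3 held a liver that stood apart from the others by Dixon's criterion, where chance marks about 1 in 20 groups. Slc25a5 was at 571 CPM in KO ZT12 replicate 1, below the other 3 livers (645.5 to 651.8). Slc25a33 was at 17.3 CPM in KO ZT20 replicate 2, below the others (31.5 to 34.1). Slc25a15 was at 491 CPM in WT ZT12 replicate 4, above the others (330.0 to 349). The 3 values came from 3 different livers, and the cause was not tested.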

How the results depend on the processing

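The count of carrier genes past the threshold was recomputed under each alternative. Between genotypes it was 0 with DESeq2, DESeq2 size factors, no filter, Alb kept, weight or age as covariate and the replicate block, over all times, at each time and for the interaction. With the within-group component as a covariate it was 10 over all times, where 21.1% of all genes passed. With the share of all genes in brackets, it was 14 at ZT4 (31%), 1 at ZT12 (1.36%) and 5 at ZT16 (6.51%). For the interaction it was 7 (14.1%), and the rhythm counts were 17 in WT (34.1%) and 17 in KO (41.5%). That covariate has a mean of 0 in every group, so it narrows the spread and cannot take up differences between groups. It was computed from deviations of the same counts, so p-values with it can be too small. The component score that keeps its differences between groups was added after seeing the data. With it the genotype count over all times was 0, the shared rhythm count 28 (against 47.3% of all genes) and the WT rhythm count 16 (against 29.9%). DESeq2 gave 8 for WT rhythm (against 19.8%). On leaving out each library, counts ran from 0 to 1 over all times, from 0 to 10 at ZT4, from 16 to 20 for the shared rhythm, from 4 to 9 in WT (9 without KO ZT16 replicate 3, 8 without KO ZT16 replicate 2 or WT ZT16 replicate 2) and from 7 to 14 in KO (14 without KO ZT16 replicate 3). They stayed at 0 for all other tests. The shared rhythm call of Slc25a47 was lost for 10 of 48 libraries, of Slc25a4 for 3 and of Slc25a27 for 2. Slc25a47 also lost it without the filter (adjusted p = 0.0762), with DESeq2 size factors (0.0505) and with age (0.0625). Slc25a4 lost it without the filter (adjusted p = 0.0515) and with weight (0.103), and Slc25a27 with weight (0.0521). Other genes gained the call: Slc25a11, Slc25a29 and Slc25a48 with DESeq2 (adjusted p = 0.0354, 0.0411 and 0.0382). In edgeR, Slc25a11 gained it with DESeq2 size factors (0.0454), Slc25a29 with age (0.0321) and Slc25a13 with weight (0.0391). Further genes gained it with the component covariates. Of 23 same-numbered WT and KO pairs, 22 had the same age, but the labels name no shared litter or day. Residuals correlated above 0.1 in 13 pairs (-0.387 to 0.489, median 0.12), which does not decide whether the mice were matched. The main fits did not take the numbers as pairs. The shared rhythm test thus treats all 48 mice as independent, which would overstate its evidence if the mice were matched. With the replicate block 127 genes of all passed between genotypes, against 191 without it, and 0 carrier genes. The replicate block was not run for the shared rhythm or rhythms within a genotype, which it absorbs, or for the age slope. Of all genes, 356 passed between genotypes with DESeq2, 38 with weight as a covariate and 99 to 484 on leaving out a library. Counting depth limits Slc25a2 and Slc25a35 most (SE of the genotype difference 0.216 and 0.206). The abundant Slc25a22, Slc25a42 and Slc25a39 had larger SEs, of 0.303, 0.247 and 0.225. The genotype test recovered 54% of simulated differences of 0.5 log2 units. The simulation held no within-group component, so this share does not give the power for such carriers.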
